A study of Mus musculus with 10 samples.

Results

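The genes of transforming growth factor beta (TGF-beta) signalling followed here were the 10 genes that encode its ligands (Tgfb1, Tgfb2, Tgfb3), its receptors (Tgfbr1, Tgfbr2, Tgfbr3), its latency proteins (Ltbp1, Ltbp2, Ltbp3) and the TGF-beta induced matrix protein (Tgfbi). They were taken by gene name from a table of 56748 mouse genes, and all 10 were found. All passed the filter on low values, a mean of at least 0.5 FPKM (reads scaled by gene length and a size factor of the library). The table held 10 gastric tumours, 5 of an inflamed type and 5 of a desert type, with 1 RNA library each. The inflamed tumours came from mice of genotype Tff1-CreERT2;Apcfl/fl;Trp53fl/fl, in which a tamoxifen-inducible Cre recombinase driven by the gastric gene Tff1 can remove floxed parts of Apc and Trp53. The desert tumours were labelled as orthotopic allografts of wild type genotype. The labels do not say whether that genotype is the host's or the graft's, and age, Cre induction and whether each tumour came from its own animal are not stated. Type, model and genotype therefore cannot be told apart, and p-values measure only the spread between these samples.

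TGF-beta ligands are secreted in a latent form, held inactive by their own propeptide, which latent TGF-beta binding proteins tether to the extracellular matrix. Integrins, proteases and thrombospondin release the active ligand, which brings together the type II and type I receptors. The type I receptor then phosphorylates SMAD2 and SMAD3, which enter the nucleus with SMAD4. In the stomach the pathway is known to restrain epithelial growth, to drive fibroblast matrix production and to dampen T cell responses.

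The libraries held 14148147 to 16951640 reads in genes. Pairs of libraries correlated (Pearson, log2(FPKM + 1), across genes) at 0.926 to 0.975 within the inflamed type, at 0.952 to 0.976 within the desert type and at 0.701 to 0.765 across types. Of 16750 genes tested with limma, 62.2% were called at an adjusted p under 0.05, 31.0% higher and 31.2% lower in inflamed tumours. The gastric epithelial markers summed to 10300 to 44400 FPKM in inflamed tumours and to 28.7 to 59.1 FPKM in the desert tumours, also labelled stomach. There Tff1 was listed at 0 in 4 of 5 tumours, and Cblif, which encodes gastric intrinsic factor, lay at 0 to 0.127 FPKM. The listed genes with the highest desert means were Muc6, at 7.07 to 35.4 FPKM, and Atp4a, at 2.29 to 17.1 FPKM. Others were low in desert tumours, with Atp4b at 0.0390 to 0.454, Pgc at 0.0448 to 1.31 and Tff2 at 0 to 0.605 FPKM. Of the 11 listed genes 9 were called higher in inflamed tumours and 0 lower. The 2 that did not pass were Atp4a and Tff1, which ran from 0.242 to 37.8 FPKM in inflamed tumours.

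Within this family the members of each role moved in different directions. In inflamed tumours 4 of the 10 genes were higher (Tgfb2, Tgfbr2, Ltbp2 and Tgfbi), 3 were lower (Tgfb3, Tgfbr3 and Ltbp3), and 3 did not pass (Tgfb1, Tgfbr1 and Ltbp1). These 7 calls stood against a background of 62.2% of all tested genes, a share of 70.0% of the members that lies near the background. The median log2 difference of the 10 genes was -0.36, against -0.0072 over all tested genes. In 5 genes the values of the groups did not overlap, 2 with the inflamed tumours above and 3 with them below, against 48.9% of all tested genes, 24.4% in each direction. The ligands, the receptors and the latency proteins each held 1 gene that rose, 1 that fell and 1 that did not pass. No member changed sign in any alternative processing.

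**Figure D1:**
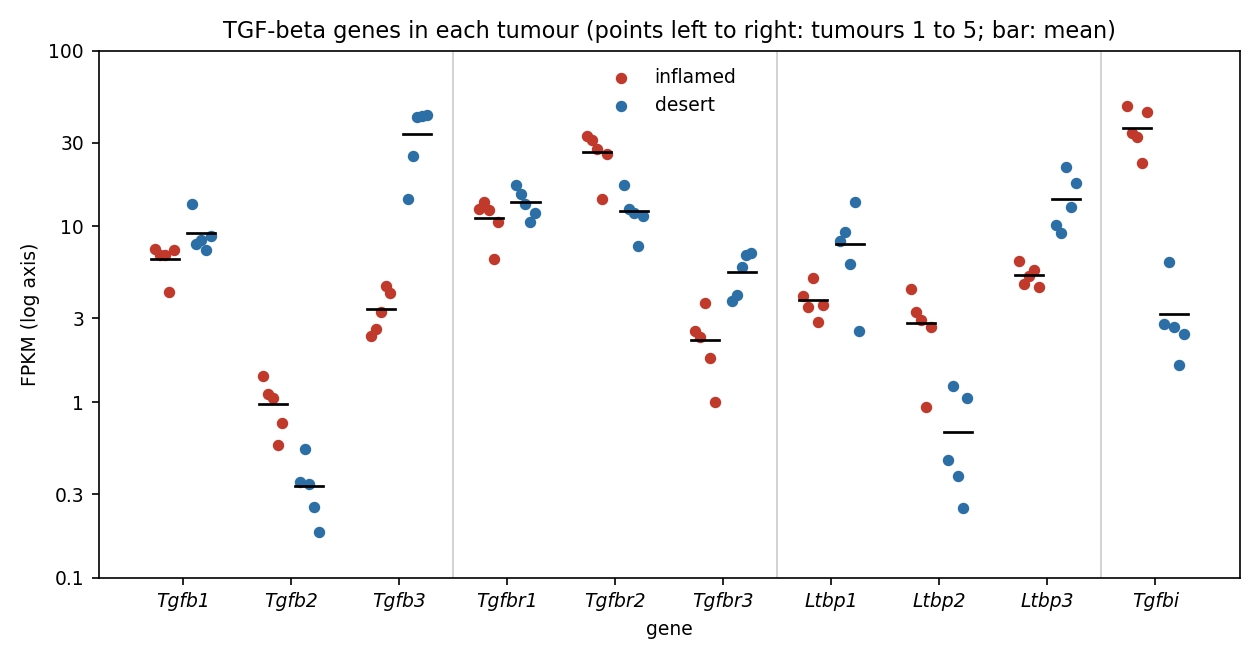
FPKM of the 10 genes on a log axis in each inflamed (red) and desert (blue) tumour, tumours 1 to 5 from left to right within each cluster of points, with the group mean as a bar. Tgfb3 lies at 2.37 to 4.60 FPKM in the inflamed group and 14.4 to 43.1 FPKM in the desert group, and Tgfbi lies at 23.0 to 48.5 and 1.62 to 6.27 FPKM.

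The start regions of the genes that changed are shown because members of the same role went opposite ways. RefSeq start regions (build GRCm38.p6) matched 8 of the 10 genes, and Tgfb3 and Tgfbr3 had no entry. The 250 bases before the start site are shown 5′ to 3′ for the 5 matched genes that were called, first the 4 that were higher in inflamed tumours and then Ltbp3, which was lower. Capitals mark any match, on either strand, to CAGAC (the core of the SMAD binding element), TGANTCA (the AP-1 site), GGGCGG (the GC box) or TATAAA (the TATA box). No matches overlapped in these 5 sequences.
Tgfbi (chr13:56609336-56609585, plus strand): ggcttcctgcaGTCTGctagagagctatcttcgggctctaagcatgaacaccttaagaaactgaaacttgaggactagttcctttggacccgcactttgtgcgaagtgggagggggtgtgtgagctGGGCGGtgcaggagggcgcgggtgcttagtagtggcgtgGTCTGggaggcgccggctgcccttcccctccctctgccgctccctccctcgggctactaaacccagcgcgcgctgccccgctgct
Tgfb2 (chr1:186705990-186706239, minus strand): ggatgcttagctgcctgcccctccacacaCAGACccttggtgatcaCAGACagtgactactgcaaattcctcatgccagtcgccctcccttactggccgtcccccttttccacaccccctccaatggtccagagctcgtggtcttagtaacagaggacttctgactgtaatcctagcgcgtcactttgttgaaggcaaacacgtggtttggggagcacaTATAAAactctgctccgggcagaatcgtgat
Tgfbr2 (chr9:116175364-116175613, minus strand): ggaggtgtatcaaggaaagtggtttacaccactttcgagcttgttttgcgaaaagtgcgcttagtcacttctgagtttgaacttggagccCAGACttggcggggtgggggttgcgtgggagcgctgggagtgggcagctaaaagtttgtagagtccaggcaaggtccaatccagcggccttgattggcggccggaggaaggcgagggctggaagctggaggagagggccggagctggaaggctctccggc
Ltbp2 (chr12:84876492-84876741, minus strand): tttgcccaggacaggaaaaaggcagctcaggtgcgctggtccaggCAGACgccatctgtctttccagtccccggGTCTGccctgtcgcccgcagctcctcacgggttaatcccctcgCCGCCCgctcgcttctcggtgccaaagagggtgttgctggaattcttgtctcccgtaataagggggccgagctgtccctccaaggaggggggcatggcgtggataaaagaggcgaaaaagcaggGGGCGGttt
Ltbp3 (chr19:5740650-5740899, plus strand): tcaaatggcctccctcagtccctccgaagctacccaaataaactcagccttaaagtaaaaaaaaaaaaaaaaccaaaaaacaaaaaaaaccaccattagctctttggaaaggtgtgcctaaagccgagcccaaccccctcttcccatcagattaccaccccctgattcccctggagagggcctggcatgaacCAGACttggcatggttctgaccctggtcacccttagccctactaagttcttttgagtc

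No motif was shared by every gene that rose and missing from Ltbp3. As Ltbp3 was the only lower gene with a start region, whether motifs go with direction cannot be judged. CAGAC was found in all 5 sequences, with 2 matches each for Tgfbi, Tgfb2 and Ltbp2 and 1 each for Tgfbr2 and Ltbp3, and 42.2% of all 32851 RefSeq start regions of this length hold it. TATAAA was found only in Tgfb2 among the 5, 31 bases before the start, and 12.4% of all regions hold it. GGGCGG was found in Tgfbi (1 match) and Ltbp2 (2 matches), and 32.7% of all regions hold it. TGANTCA was found in none of the 5, and 6.75% of all regions hold it. The Tgfb1 region held 5 matches to GGGCGG, no TATAAA and a GC content of 75.2%, against 53.6% for Tgfb2. These matches describe letters in a window and no binding was measured.

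Among the ligands, Tgfb3 was the gene that separated the tumour types most. Tgfb3 (ENSMUSG00000021253, chromosome 12, 86103519 to 86125815 in the deposited table) encodes the isoform known from palate and epithelial development and from wound repair. Inflamed tumours 1 to 5 held Tgfb3 at 2.37, 2.60, 3.25, 4.60 and 4.15 FPKM. Desert tumours 1 to 5 held it at 14.4, 25.0, 42.1, 42.5 and 43.1 FPKM. Every desert tumour lay above every inflamed tumour, and desert tumours 1 and 2 were the lowest of their group. The mean was 33.4 ± 13.1 FPKM (SD, n = 5) in desert and 3.39 ± 0.968 FPKM in inflamed tumours, 9.85 times as high in desert. On log2(FPKM + 1) the inflamed minus desert difference was -2.89 (SE 0.29, limma adjusted p = 9.29e-06). The gene's span overlaps 5149 bases of Ttll5 on the opposite strand, a tubulin modifying enzyme gene, whose mean was 1.14 FPKM in the inflamed group and 2.51 FPKM in the desert group. No source used here states whether strand was kept, so the reads of overlapping genes cannot be told apart.

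Tgfb1 and Tgfb2 did not follow Tgfb3. Tgfb1 (ENSMUSG00000002603, chromosome 7, 25386427 to 25404502) encodes the isoform that immune cells, platelets and stroma are known to make. It was at 7.43, 6.92, 6.87, 4.25 and 7.32 FPKM across inflamed tumours 1 to 5, against 13.5, 8.0, 8.37, 7.34 and 8.80 FPKM across desert tumours 1 to 5. Inflamed tumour 4 was the lowest and desert tumour 1 the highest, and inflamed tumour 1, at 7.43 FPKM, lay above desert tumour 4. The difference was -0.42 (95% interval -0.80 to -0.04, limma adjusted p = 0.0511) and did not pass. It passed in 6 of 23 alternatives, among them TPM (-0.75, limma adjusted p = 0.0071), quantile normalization (0.0283), a mean of at least 5 FPKM (0.0449), a pseudocount of 0.1 (0.0499) and leaving out desert tumour 4 (0.0393). Over the alternatives its adjusted p ran from 0.0071 to 0.57, the highest with chromosome medians removed (-0.12), where the median of chromosome 7 was -0.30. Without inflamed tumour 4 and desert tumour 1 together the difference was -0.16.

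Tgfb2 (ENSMUSG00000039239, chromosome 1, 186354989 to 186438186), the isoform whose propeptide lacks the integrin-binding motif of the other two, had the lowest mean of the 10 genes in each group. It was at 1.40, 1.11, 1.06, 0.567 and 0.760 FPKM across inflamed tumours 1 to 5, against 0.349, 0.539, 0.343, 0.254 and 0.182 FPKM across desert tumours 1 to 5. These values rest on 20 to 143 reads per library. All 5 inflamed tumours lay above all 5 desert tumours, though inflamed tumour 4 and desert tumour 2 were 0.567 and 0.539 FPKM. The mean FPKM was 2.93 times as high in inflamed tumours. The difference on the log2(FPKM + 1) scale, which understates the change of low genes, was 0.56 (SE 0.14, limma adjusted p = 0.00424). It ran from 0.35 with quantile normalization to 1.62 with voom on recovered reads.

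The make-up of ligand expression differed as well. FPKM is scaled by length, so the 3 ligands can be set side by side within a library. In inflamed tumours Tgfb1 took 59.6% ± 8.52 (SD, n = 5) of the summed ligand FPKM, Tgfb3 31.5% ± 10.9 and Tgfb2 8.92% ± 2.79. In desert tumours Tgfb3 took 75.2% ± 14.1, Tgfb1 23.9% ± 13.8 and Tgfb2 0.875% ± 0.528. Tgfb1 was the leading ligand in inflamed tumours 1, 2, 3 and 5, and Tgfb3 in inflamed tumour 4 and in all 5 desert tumours. Inflamed tumour 4 and desert tumour 1 came close to each other, with Tgfb3 at 48.9% and 50.9%. The 3 ligands summed to 9.42 to 12.2 FPKM in the inflamed group and 28.2 to 52.1 FPKM in the desert group. These shares and sums are over chosen genes and are given without a test.

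**Figure D2:**
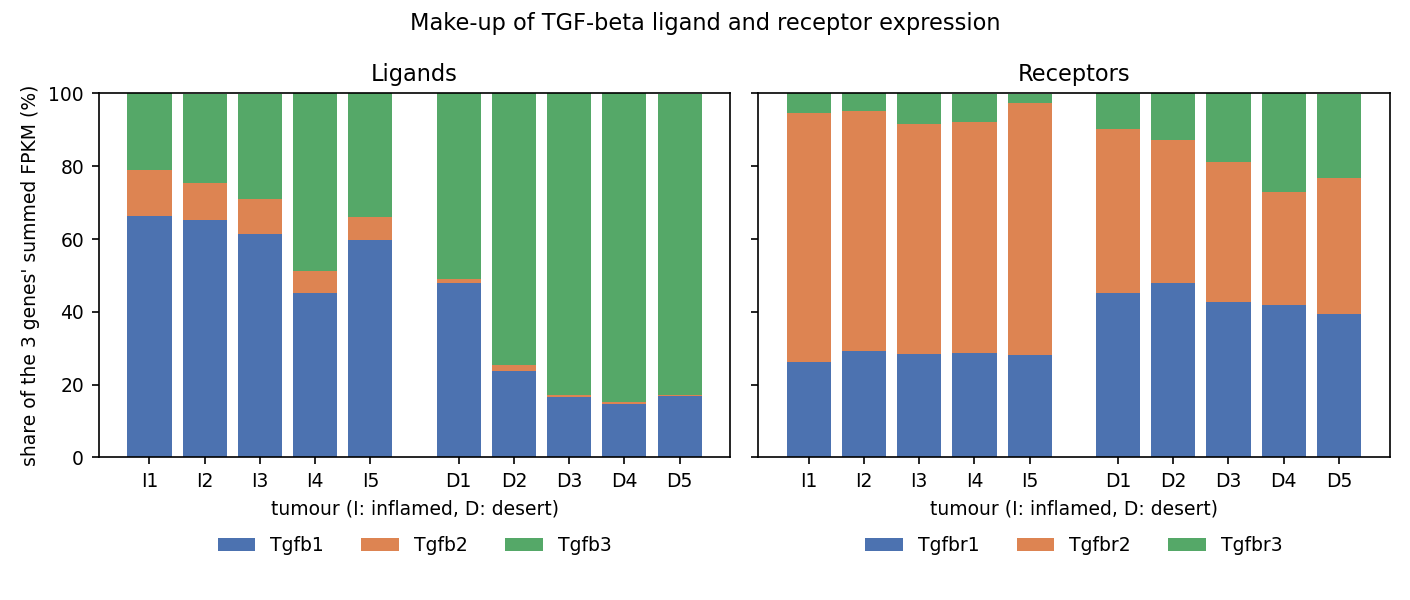
Share of each gene in the summed FPKM of the 3 ligands (left) and of the 3 receptors (right), in percent, with 1 stacked bar for each tumour (I, inflamed, D, desert). The Tgfb3 share runs from 21.1% to 48.9% in inflamed and from 50.9% to 84.8% in desert tumours, and the Tgfbr2 share from 63.3% to 69.1% and from 30.9% to 44.9%.

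The receptor genes differed in the balance of type II to type I receptor. Tgfbr2 (ENSMUSG00000032440, chromosome 9, 115913361 to 116004428) encodes the type II receptor, which binds the ligand and activates the type I receptor. It was at 32.6, 31.2, 27.8, 14.4 and 25.9 FPKM across inflamed tumours 1 to 5, against 17.1, 12.6, 11.9, 7.78 and 11.5 FPKM across desert tumours 1 to 5. The groups overlapped through inflamed tumour 4, which lay below desert tumour 1. The difference was 1.04 (SE 0.23, limma adjusted p = 0.0025), and the mean FPKM was 2.16 times as high in inflamed tumours.

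Tgfbr1 (ENSMUSG00000007613, chromosome 4, 47353222 to 47414931), the type I receptor kinase that phosphorylates SMAD2 and SMAD3, had ranges that overlapped in part between the groups. It was at 12.5, 13.8, 12.4, 6.52 and 10.6 FPKM across inflamed tumours 1 to 5, against 17.3, 15.3, 13.3, 10.6 and 12.0 FPKM across desert tumours 1 to 5. Its difference was -0.29 (95% interval -0.71 to 0.12, limma adjusted p = 0.197) and did not pass. It passed in 3 of 23 alternatives, among them TPM (-0.61, limma adjusted p = 0.0411) and the removal of chromosome medians (-0.54, limma adjusted p = 0.0304), and its adjusted p ranged from 0.0304 to 0.761. Without inflamed tumour 4 the difference was -0.13, and with array quality weights it was -0.16. The median difference of all tested genes on its chromosome 4 was 0.24.

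The ratio of Tgfbr2 to Tgfbr1 cannot be changed by scaling each library by a single factor, though quantile normalization can change it. It was 2.61, 2.27, 2.23, 2.21 and 2.45 in inflamed tumours 1 to 5. It was 0.992, 0.824, 0.895, 0.736 and 0.956 in desert tumours 1 to 5. Inflamed tumour 4, which had the lowest value of its group for each of these genes, lay with the other inflamed tumours in the ratio. The groups did not overlap, and as a summary over chosen genes the ratio was not tested.

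Tgfbr3 (ENSMUSG00000029287, chromosome 5, 107254436 to 107437495) encodes betaglycan, the coreceptor that presents ligand, TGF-beta 2 above all, to the type II receptor. It was at 2.55, 2.34, 3.68, 1.79 and 0.999 FPKM across inflamed tumours 1 to 5, against 3.74, 4.08, 5.90, 6.87 and 7.03 FPKM across desert tumours 1 to 5. The groups met without overlap, with inflamed tumour 3 at 3.68 and desert tumour 1 at 3.74 FPKM. The difference was -1.02 (SE 0.23, limma adjusted p = 0.00276), while the median of all tested genes on its chromosome 5 was 0.36. Tgfb2 and Tgfbr3 thus moved in opposite directions between the tumour types.

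The latent TGF-beta binding proteins are large matrix proteins, of which LTBP1 and LTBP3 bind the latent ligand, while LTBP2 is known not to bind it and to associate with fibrillin microfibrils. Ltbp3 (ENSMUSG00000024940, chromosome 19, 5790932 to 5808560) was at 6.33, 4.72, 5.20, 5.64 and 4.54 FPKM across inflamed tumours 1 to 5, against 10.2, 9.15, 21.7, 13 and 17.6 FPKM across desert tumours 1 to 5. All desert values lay above all inflamed values, and the inflamed values were the tightest of the 10 genes (coefficient of variation 13.7%). Its difference was -1.23 (SE 0.21, limma adjusted p = 0.000364).

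Ltbp2 (ENSMUSG00000002020, chromosome 12, 84829986 to 84923306) went the other way. It was at 4.38, 3.25, 2.94, 0.939 and 2.69 FPKM across inflamed tumours 1 to 5, against 0.470, 1.23, 0.380, 0.251 and 1.06 FPKM across desert tumours 1 to 5. Inflamed tumour 4 lay inside the desert range, and the other 4 inflamed tumours lay above it. The difference was 1.16 (SE 0.27, limma adjusted p = 0.00297), and the mean FPKM was 4.19 times as high in inflamed tumours. With voom on recovered reads the difference was 2.20.

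Ltbp1 (ENSMUSG00000001870, chromosome 17, 75312563 to 75699507), which covalently binds the TGF-beta 1 propeptide, spread more among desert than among inflamed tumours (coefficients of variation 51.9% and 22.0%). It was at 3.99, 3.47, 5.10, 2.85 and 3.58 FPKM across inflamed tumours 1 to 5, against 8.28, 9.25, 6.10, 13.8 and 2.53 FPKM across desert tumours 1 to 5. Desert tumours 1 to 4 lay above every inflamed tumour, and desert tumour 5 lay below them all. The difference was -0.78 (95% interval -1.47 to -0.08, limma adjusted p = 0.0526) and did not pass. It passed in 5 of 23 alternatives: without desert tumour 5 (-1.08, limma adjusted p = 0.00137), with chromosome medians removed, after TPM or quantile scaling, and with a mean of at least 5 FPKM. Over all alternatives its adjusted p ran from 0.00137 to 0.166. Desert tumour 5 had the highest Tgfb3 and Tgfbr3 values of its group.

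Tgfbi showed the largest difference of the 10 genes on the log2(FPKM + 1) scale. The gene (ENSMUSG00000035493, chromosome 13, 56757336 to 56787375) encodes a secreted matrix protein that binds integrins and collagen and was named for its induction by TGF-beta. Inflamed tumours 1 to 5 were at 48.5, 33.9, 32.2, 23.0 and 44.8 FPKM and desert tumours 1 to 5 at 2.78, 6.27, 2.67, 1.62 and 2.43 FPKM. The lowest inflamed tumour, tumour 4, lay above the highest desert tumour, tumour 2. The mean was 36.5 ± 10.2 FPKM in the inflamed group and 3.15 ± 1.80 FPKM in the desert group (SD, n = 5 each). The difference was 3.22 (SE 0.27, limma adjusted p = 2.35e-06), and the mean FPKM was 11.6 times as high in inflamed tumours. Between the groups, Tgfbi was thus higher where the summed ligand FPKM was lower. Within the inflamed group tumour 4 had the lowest value of both, with a ligand sum of 9.42 FPKM.

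**Figure D3:**
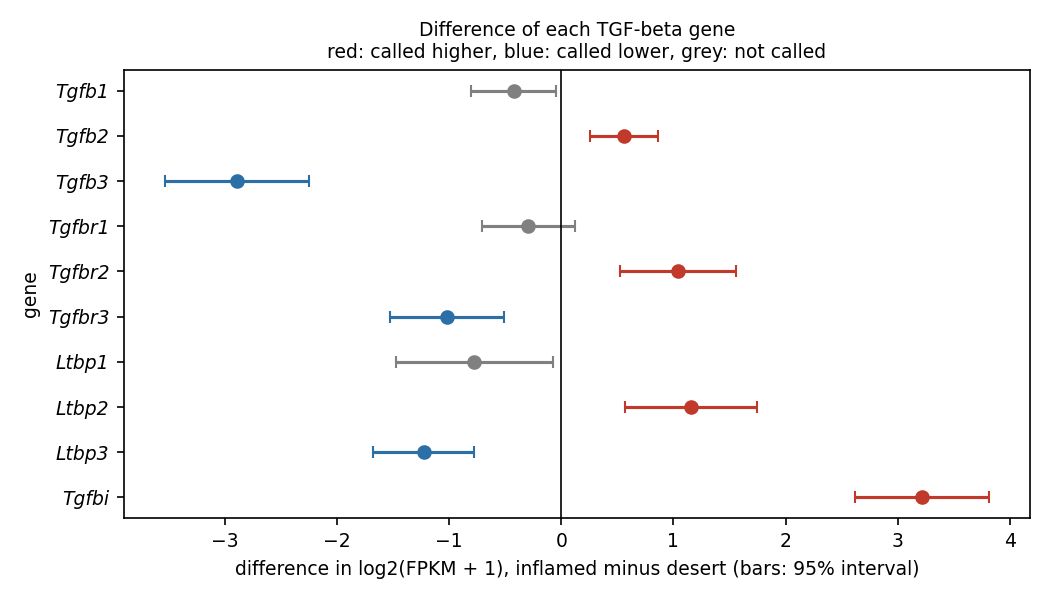
Difference of each gene in log2(FPKM + 1), inflamed minus desert, with its 95% interval from limma, red where called higher, blue where called lower and grey where not called. Tgfbi (3.22) and Tgfb3 (-2.89) lie at the ends, and the intervals of Tgfb1 and Ltbp1 end close to 0.

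The order of levels differed between the groups. In inflamed tumours the means fell from Tgfbi (36.5 FPKM) through Tgfbr2 (26.4), Tgfbr1 (11.2), Tgfb1 (6.56), Ltbp3 (5.29), Ltbp1 (3.80), Tgfb3 (3.39), Ltbp2 (2.84) and Tgfbr3 (2.27) to Tgfb2 (0.978). There the ranges of neighbours overlapped at every step except between Tgfbr2 and Tgfbr1. In desert tumours the means fell from Tgfb3 (33.4 FPKM) through Ltbp3 (14.3), Tgfbr1 (13.7), Tgfbr2 (12.2), Tgfb1 (9.20), Ltbp1 (7.99), Tgfbr3 (5.53), Tgfbi (3.15) and Ltbp2 (0.677) to Tgfb2 (0.333). There every pair of neighbours overlapped except Tgfbi and Ltbp2. Neighbours whose ranges overlap are not separated by these 5 tumours. Inflamed tumour 4 had the lowest inflamed value in 7 of the 10 genes and inflamed tumour 1 the highest in 6. Inflamed tumour 4 also had the highest sums of gastric epithelial (44400 FPKM) and smooth muscle markers (541 FPKM) and the lowest of fibroblast markers (56.8 FPKM) in its group, and the part of these in its values was not tested.

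Several cell types make these genes, and in bulk tumours fewer cells of a type and less RNA per cell cannot be told apart. Fibroblast markers summed to 56.8 to 114 FPKM in the inflamed group and 23.4 to 47.6 FPKM in the desert group, with 4 of 7 tested genes higher and 0 lower. Endothelial markers summed to 16.3 to 41.1 and 13.7 to 19.7 FPKM (3 of 6 higher, 0 lower), and macrophage markers to 53.5 to 226 and 50.6 to 121 FPKM (1 of 7 higher, 0 lower). T cell markers summed to 10.5 to 28.4 and 0.375 to 1.20 FPKM (6 of 6 tested higher). Platelet markers summed to 4.70 to 9.49 and 2.51 to 4.43 FPKM (2 of 4 tested higher, 0 lower). Gp1bb was near absent in both groups, at 0 in all inflamed tumours and at or under 0.0298 FPKM in desert tumours. Smooth muscle markers summed to 25.4 to 541 and 1.61 to 37.9 FPKM (4 of 5 higher, 0 lower). Cartilage markers summed to 51.0 to 68.0 FPKM in the inflamed group and 346 to 553 FPKM in the desert group, and the 3 tested of 5 (Col2a1, Comp and Sox9) were lower in inflamed tumours. Sox9, at 49.9 to 67.1 FPKM, made up most of the inflamed sum. Below the filter lay Matn3, at 0 to 0.0654 FPKM in inflamed and 0.174 to 0.683 FPKM in desert tumours, and Acan, the cartilage proteoglycan, at means of 0.0873 and 0.0227 FPKM. Epithelial markers summed to 3200 to 6260 and 1500 to 2200 FPKM (3 of 5 higher, 0 lower). These counts stand beside 31.0% of all tested genes called higher and 31.2% called lower. The part of these cell types in the differences of the 10 genes was not tested.

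The genes with the profiles most like those of the 3 members of largest difference were found by the mean absolute distance between centred log2(FPKM + 1) profiles over the 10 tumours. Nearest to Tgfbi were Cd14, the endotoxin coreceptor (distance 0.18), the complement gene C3 (0.211) and the adhesion gene Icam1 (0.23). Cd14 was at 57.6 ± 18.6 FPKM in the inflamed group and 4.66 ± 1.85 FPKM in the desert group (SD, n = 5 each). Nearest to Tgfb3 were Ccdc136 (0.149), Fxyd6, a sodium pump regulator (0.208), and Cpsf4l (0.217). Nearest to Ltbp3 were Nr2e3 (0.115), which was listed at 0 in all inflamed tumours, Ajm1 (0.125) and Cuedc1 (0.131). Group means, inflamed first, were 0 and 1.49 FPKM for Nr2e3 and 0.188 and 1.73 FPKM for Ajm1. Those of Cuedc1 were 7.38 and 19.5 FPKM, beside 5.29 and 14.3 FPKM for Ltbp3. As the log2(FPKM + 1) scale understates the change of low genes, Nr2e3 and Ajm1 lay near Ltbp3 without a similar ratio of means. A short distance requires a similar group difference on that scale, so a shared direction follows from the choice.

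Other genes of the pathway were read from 5 lists of 44 genes, of which 41 passed the filter. Of these, 16 were higher and 16 lower in inflamed tumours, 78.0% against 62.2% of all tested genes, and the median difference was 0.36 against -0.0072. Rescaling to TPM, which moved the median of all tested genes to -0.28, left 9 of them higher and 16 lower. The lists were chosen with results of these data known, and nothing particular to them is read from the counts.

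Among other latency and microfibril genes 2 of 5 tested were higher and 2 lower, 80% against 62.2% of all tested genes. Ltbp4, the family member that binds TGF-beta 1 latent complexes and supports elastic fibres, was at 28.0 ± 7.11 FPKM in the inflamed group and 65.0 ± 12.3 FPKM in the desert group (SD, n = 5 each). Its difference was -1.20 (limma adjusted p = 0.000163), and the groups did not overlap. Fbn1, which encodes the microfibril protein fibrillin-1, was at 4.38 ± 1.80 and 8.64 ± 2.12 FPKM (-0.89, limma adjusted p = 0.00968). Emilin1, a matrix protein that restrains processing of the TGF-beta precursor, was at 8.41 ± 2.15 and 1.40 ± 0.372 FPKM (1.96, limma adjusted p = 2.08e-06). Lrrc32, which displays latent TGF-beta on regulatory T cells and platelets, was at 3.05 ± 1.62 and 1.24 ± 0.254 FPKM (0.76, limma adjusted p = 0.0251). Its groups overlapped, with inflamed tumours 4 and 5 (1.29 and 1.47 FPKM) inside the desert range of 0.987 to 1.59 FPKM.

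Among activators of latent TGF-beta 4 of 10 tested were higher and 4 lower, 80% against 62.2% of all tested genes. Itgb6, the epithelial integrin subunit that pairs with alpha v to pull the ligand free, was at 7.94, 8.14, 10.8, 12.3 and 11.3 FPKM across inflamed tumours 1 to 5. In desert tumours 1 to 5 it was at 0.275, 0.712, 0.402, 0.532 and 0.363 FPKM. The groups lay far apart (2.92, SE 0.14, limma adjusted p = 3.18e-08). Its partner Itgav was at 11.3 ± 1.10 and 9.70 ± 1.87 FPKM (0.22, 95% interval -0.06 to 0.50, limma adjusted p = 0.15). Itgb5, another alpha v partner, was at 31.2 ± 2.90 FPKM in the inflamed group and 50.8 ± 6.67 FPKM in the desert group (-0.68, limma adjusted p = 0.000166). Itgb3 averaged 5.13 ± 1.65 and 0.721 ± 0.202 FPKM (1.79, limma adjusted p = 1.26e-05), and Itgb1 at 122 ± 9.35 and 82.3 ± 16.6 FPKM (0.59, limma adjusted p = 0.00292). Itgb1 was not called after rescaling to TPM (0.29, limma adjusted p = 0.114, range over alternatives 0.000781 to 0.114). The beta subunits that can pair with alpha v therefore differed in direction.

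Proteases and thrombospondin were divided as well. Mmp9, a gelatinase that neutrophils also carry, was at 5.91 ± 1.69 FPKM in the inflamed group and 0.207 ± 0.146 FPKM in the desert group (2.49, limma adjusted p = 3.96e-07). Mmp14 averaged 38.9 ± 10.2 and 56.7 ± 6.49 FPKM (-0.56, limma adjusted p = 0.0126), and Furin, which cleaves the precursor, at 27.3 ± 7.22 and 38.3 ± 6.63 FPKM (-0.50, limma adjusted p = 0.037). Thbs1, the matrix activator thrombospondin-1, was at 49.5 ± 12.5 and 74.7 ± 19.7 FPKM (-0.57, limma adjusted p = 0.0474). That call did not hold in 12 of 23 alternatives, 8 of which each left out a single library (any but inflamed tumour 5 and desert tumour 5), and its limma adjusted p ranged from 0.003 to 0.18.

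Accessory receptors and the pseudoreceptor differed. Eng and Acvrl1, which form the endothelial receptor branch, were at 11.3 ± 3.65 against 5.41 ± 1.36 FPKM and at 4.96 ± 1.60 against 2.70 ± 1.001 FPKM in inflamed against desert tumours (SD, n = 5 each). Their differences were 0.90 (limma adjusted p = 0.00557) and 0.69 (limma adjusted p = 0.0259). The Acvrl1 call did not hold in 6 of 22 alternatives, which were TPM (0.56, limma adjusted p = 0.137) and leaving out inflamed tumour 1, 2 or 3 or desert tumour 3 or 4, and its adjusted p ranged from 0.00321 to 0.137. Eng was not called after rescaling to TPM either (limma adjusted p = 0.0519, range over alternatives 0.000293 to 0.0519). Bambi, a kinase-less pseudoreceptor and Wnt target, was at 1.57 ± 0.284 FPKM in the inflamed group and 4.33 ± 0.615 FPKM in the desert group (-1.05, limma adjusted p = 1.58e-05).

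Of 12 genes of SMAD transducers and their regulators, 4 were higher (Smad6, Smurf1, Ski and Pmepa1) and 7 lower, 91.7% against 62.2% of all tested genes. In 11 the groups did not overlap, against 48.9% of all tested genes. The list was chosen with results of these data known, so nothing particular to it is read from these counts. The 3 transducer genes Smad2, Smad3 and Smad4 were all lower in inflamed tumours. Smad4, the common partner SMAD, was at 27.9, 27.9, 25.6, 22.7 and 25.3 FPKM across inflamed tumours 1 to 5, against 46.8, 43.0, 44.7, 48.3 and 46.9 FPKM across desert tumours 1 to 5, with no overlap (-0.81, limma adjusted p = 7.16e-06). Smad2 was at 6.71 ± 0.266 and 10.4 ± 0.881 FPKM, and Smad3 at 13.8 ± 0.548 and 19.0 ± 2.06 FPKM (SD, n = 5 each). Smad2, Smad4, Smad7 and Bambi lie on chromosome 18, where the median difference of 440 tested genes was -0.38. With chromosome medians removed, Smad4 differed by -0.43 (limma adjusted p = 0.000777) and Bambi by -0.68 (limma adjusted p = 0.000389). Over all alternatives the Smad7 difference ran from -1.51 to -0.80. Smad2, which differed by -0.56 in the main fit, was not followed through the alternatives. How much of its difference is shared by its chromosome was therefore not tested.

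The inhibitory SMAD genes moved in opposite directions. Smad7, which blocks the TGF-beta type I receptor and is itself induced by TGF-beta, was at 12.7, 12.7, 11.5, 19.6 and 14.8 FPKM across inflamed tumours 1 to 5. In desert tumours 1 to 5 it was at 25.7, 25.4, 37.6, 34.6 and 44.4 FPKM (-1.17, SE 0.18, limma adjusted p = 0.000195). Smad6, which acts mainly on the bone morphogenetic protein branch, was at 13.7, 11.4, 10.01, 19.8 and 12.1 FPKM across inflamed tumours 1 to 5. In desert tumours 1 to 5 it was at 3.46, 3.32, 3.28, 4.20 and 2.80 FPKM (1.68, SE 0.16, limma adjusted p = 5.62e-06). Neither gene overlapped between the groups. Pmepa1, a TGF-beta target that sequesters SMAD2 and SMAD3, was at 36.4 ± 2.47 FPKM in the inflamed group and 18.7 ± 4.52 FPKM in the desert group (0.96, limma adjusted p = 0.000168).

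**Figure D4:**
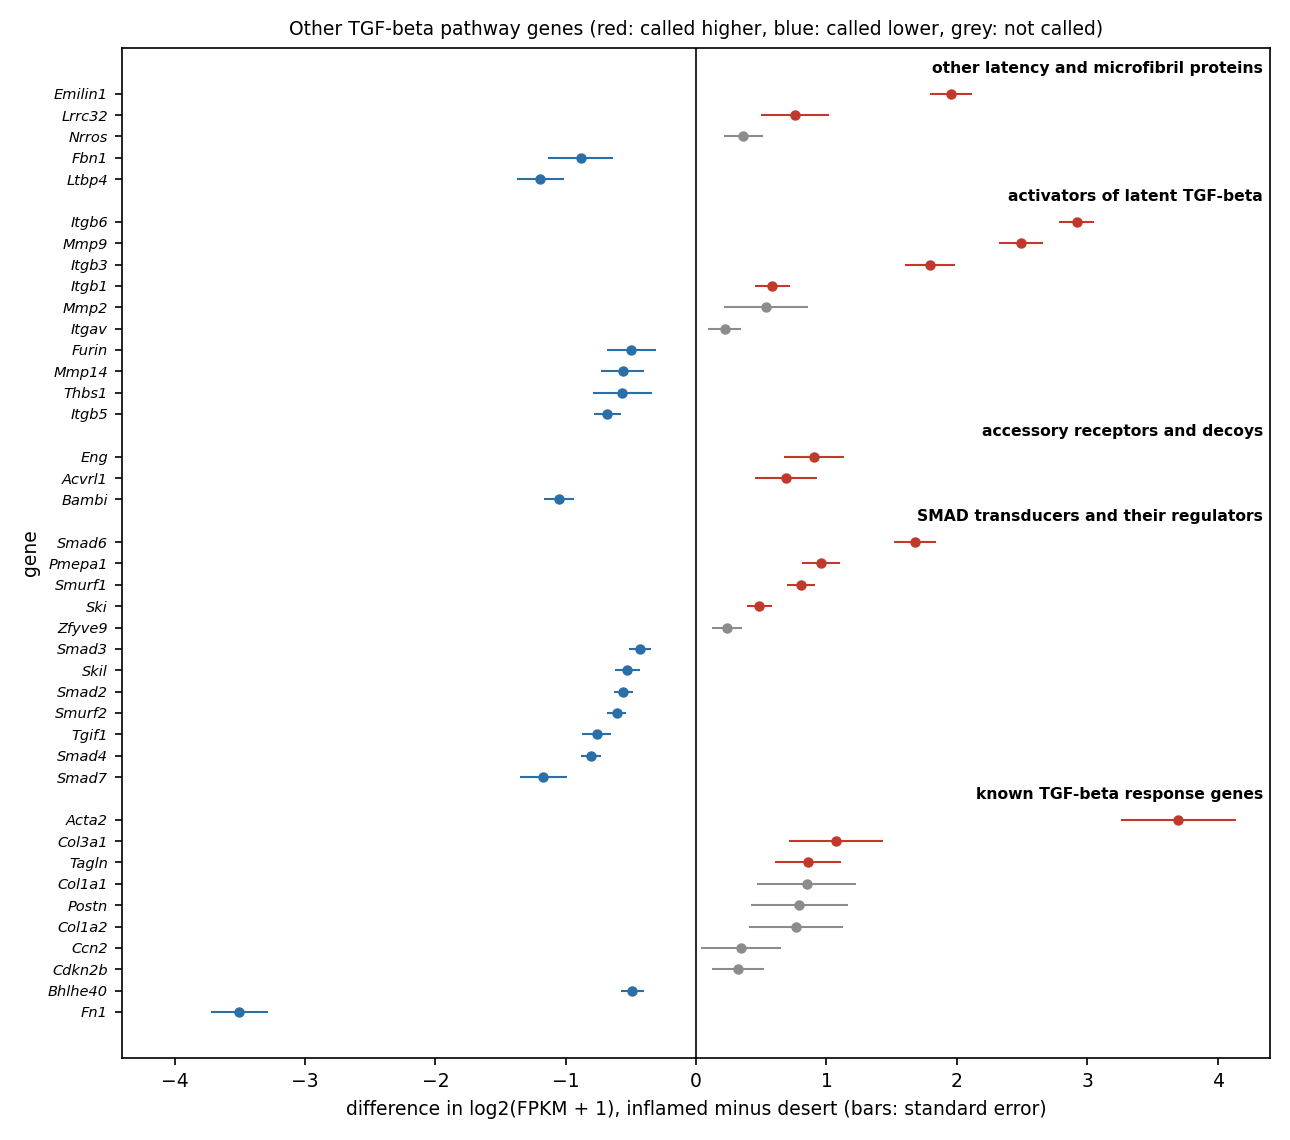
Difference in log2(FPKM + 1), inflamed minus desert, of the tested genes of the 5 pathway lists, all but 1, with standard errors, red where called higher, blue where called lower and grey where not called. Each list holds genes on both sides of 0, from Fn1 at -3.50 to Acta2 at 3.70.

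Known response genes were not all called in 1 direction. Of 11 tested, 4 were higher, 2 lower (Fn1 and Bhlhe40) and 5 did not pass, each of these 5 with a positive difference. The called share was 54.5%, against 62.2% of all tested genes. The median difference of the list was 0.79, against -0.0072 over all tested genes. Acta2, the smooth muscle and myofibroblast actin, was at 84.2, 67.7, 147, 263 and 47.4 FPKM across inflamed tumours 1 to 5, against 8.78, 13.2, 3.82, 5.48 and 5.86 FPKM across desert tumours 1 to 5 (3.70, limma adjusted p = 3.16e-05). Its order among inflamed tumours was that of the smooth muscle marker sums, at 102, 52.6, 252, 541 and 25.4 FPKM in tumours 1 to 5. Fn1, which encodes fibronectin, was at 23.9 ± 7.59 FPKM in the inflamed group and 276 ± 57.0 FPKM in the desert group (-3.50, SE 0.22, limma adjusted p = 2.45e-07). Ccn2 was at 11.2 ± 4.82 and 8.23 ± 2.42 FPKM (0.35, 95% interval -0.34 to 1.03, limma adjusted p = 0.352). The collagen genes Col1a1 and Col1a2 did not pass (limma adjusted p = 0.0751 and 0.0852), and Col3a1 was at 43.9 ± 18.7 and 20.8 ± 9.48 FPKM (1.07, limma adjusted p = 0.0231). Tgfbi (3.22) and Fn1 (-3.50), both genes of matrix proteins known to be induced by TGF-beta, thus differed in opposite directions.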

How the data were processed

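RNA of 10 gastric tumours of mice was measured, 5 inflamed and 5 desert, grouped by their titles. The authors deposited FPKM values in 1 table, with the submitters' processing notes naming the build mm10. The aligner, the counter, the annotation release and the strand setting are not given in the sources used here. Starts in the table matched GENCODE M21 (GRCm38) in 1 of the 10 members and its span lengths in 10, so positions are printed as deposited, with no build named. FPKM times the deposited gene length gave whole multiples of 1 step per library (100% of values within 0.01), which gave the reads behind each value. The library size behind the FPKM was not a plain read total. In inflamed tumour 4 it was 15220268, below the 15535722 reads in genes.

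Genes with a mean of at least 0.5 FPKM were compared on log2(FPKM + 1) with limma 3.58.1 in R 4.3.3 (two-sided, with trend and robust options and tumour type alone in the model), with Benjamini-Hochberg adjustment over all tested genes and 0.05 as threshold. The method was tested on simulated data, in which few genes changed, evenly up and down. That does not test the scaling between libraries when most genes differ. Members and lists were chosen with earlier results of these data known. Named were all members, from each pathway list the 2 genes that differed most and the 2 most abundant, and for the 3 members of largest difference the 3 nearest profiles. Other pathway genes, and ratios and shares, were picked after their values were seen. Alternatives were pseudocounts of 0.1 and 0.01, no filter, a mean of at least 5 FPKM, quantile normalization, median-of-ratios scaling, TPM, limma without those options, quality weights, a block, voom on recovered reads and each library left out. Removing chromosome medians, and leaving out inflamed tumour 4 with desert tumour 1, were added after the data were seen. Values of 1 pathway gene and of 1 gene that overlaps a member are not reported here; the former stays in the counts of its list.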

Additional observations from a re-analysis of the deposited data

Results flagged for a closer look

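Of 20 sets of 5 values (10 genes in 2 groups), 3 had an extreme value whose gap to its neighbour exceeded Dixon's 95% limit of 0.71 of the range, and chance alone flags about 1 in 20. Tgfb1 was lowest in inflamed tumour 4, at 4.25 FPKM, with the next value at 6.87 FPKM. In desert tumours Tgfb1 was highest in tumour 1, at 13.5 FPKM, with the next value at 8.80 FPKM. Tgfbi was highest among desert tumours in tumour 2, at 6.27 FPKM, with the next value at 2.78 FPKM.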

How the results depend on the processing

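The calls of Tgfb2, Tgfb3, Tgfbr2, Tgfbr3, Ltbp2, Ltbp3 and Tgfbi held in every alternative in which they were tested, and none of the 10 genes or the 16 pathway genes of the naming rule changed sign. Members called higher were 4 in all alternatives except a mean of at least 5 FPKM, which tests fewer genes and left 2 members, 10 pathway genes, 2784 of all genes higher and 3070 lower. Members called lower were 3 or 4, but 6 after rescaling to TPM, 5 after quantile normalization and 5 with chromosome medians removed, as Tgfb1, Tgfbr1 or Ltbp1 passed. TPM left 9 pathway genes higher and lowered the higher share of all calls to 35.0% from 49.9%. Pathway genes outside the naming rule, among them Col3a1, Lrrc32 and Furin, were not followed by gene through the alternatives. Whether their calls hold there is not known. Without a filter 34.8% of 34466 genes were called. Leaving out a library gave 4 members higher and 3 to 4 lower, 13 to 23 pathway genes higher (the most without inflamed tumour 4) and 14 to 15 lower. The titles share tumour numbers, and the labels do not say whether these pair tumours. Over all tested genes the deviations of same-numbered tumours correlated at -0.0737 to 0.0763, and 1 of 5 inflamed tumours matched its own number best. With only 5 numbers this cannot settle whether same-numbered tumours are paired or share a batch. The replicate block gave 5 members lower, adding Tgfb1 and Tgfbr1 (limma adjusted p = 0.0198 and 0.0464). Tgfb2, at 20 to 143 reads per library, is the member whose values depth limits most.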

Other observations

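Ltbp2 and Tgfb3 lie on chromosome 12, 1.18 megabases apart in the deposited positions, and went in opposite directions (1.16 and -2.89 on the log2 scale), while the median difference of 666 tested genes on that chromosome was -0.14.

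The ratio of Tgfb3 to Tgfb2 within a library ran from 1.69 to 8.11 across the inflamed group and from 41.1 to 237 across the desert group. The ratio of Ltbp3 to Ltbp1 spread widely among desert tumours, at 1.24, 0.989, 3.56, 0.939 and 6.94 in tumours 1 to 5, and was 1.02 to 1.98 in inflamed tumours. Fbn2, a fibrillin gene below the filter, was at 0.0629 to 0.309 FPKM in inflamed and 0.380 to 1.02 FPKM in desert tumours. Cd109, a coreceptor that inhibits TGF-beta signalling, lay at or under 0.518 FPKM in all 10 tumours.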
